A study of Mus musculus with 12 samples.

Results

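*H19* and 9 other imprinted growth genes were read in RNA sequencing of 12 whole mouse kidneys at postnatal day 3 (P3). The 10 genes are *H19*, *Dlk1*, *Meg3*, *Cdkn1c*, *Plagl1*, *Mest*, *Peg3*, *Grb10*, *Ndn* and *Phlda2*, and each was taken as the row with exactly that symbol, 10 of 24062 symbols in all. All 10 passed the filter on low counts in both models. The series has 4 groups of 3 kidneys, and each group came from 2 litters, with replicates 1 and 2 from litter 1 and replicate 3 from litter 2. *LIN28B* Wt1 kidneys (labelled LIN28OE, strain C57BL/6) came from mice that carry a doxycycline-inducible human *LIN28B* transgene, switched on only in cells of the *Wt1*-Cre lineage, that is kidney mesenchyme including nephron progenitors and cortical stroma, and later podocytes. Their littermate controls were labelled WT on the same strain. For *LIN28B* Wt1 mice the study describes a single short pulse of doxycycline before birth, and does not restate it for the sequenced kidneys. *let-7* KO kidneys came from a constitutive knockout of *let-7a-1*, *let-7d* and *let-7f-1*, and their *let-7* WT littermates were labelled WT, both on a mixed CD1 and C57BL/6 background. Other *let-7* genes remained in the knockout, and the alleles carried by either control group beyond WT are not given in the sources used here. The labels do not say whether 2 kidneys of 1 litter came from different pups, so p-values measure the spread between these kidneys only. The study asked which transcripts were shifted in both models at the age when the formation of new nephrons normally stops.

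Imprinted genes are expressed mainly from the allele of 1 parent, and many of them set how much a fetus and its organs grow. Several belong to a set that is highly expressed before birth and is switched down together in many organs as growth slows after birth. Genes expressed from the maternal allele, such as *H19*, *Cdkn1c*, *Phlda2* and *Grb10*, are known mostly as restraints on growth, while several expressed from the paternal allele, such as *Igf2*, *Dlk1*, *Mest* and *Peg3*, are known mostly to favour it. LIN28B is an RNA-binding protein that blocks the maturation of *let-7* microRNAs, and *let-7* in turn represses mRNAs that carry a match to its seed, so both models lower *let-7* activity by different routes. These counts do not separate the parental alleles.

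The mature *let-7* microRNAs removed in the knockout are shown first, since all 3 share 1 seed (bases 2 to 8, in capitals), followed by both arms of miR-675, which is processed from *H19* RNA. All are from RefSeq on GRCm38.p6, written 5′ to 3′.
let-7a-5p: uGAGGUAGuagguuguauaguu
let-7d-5p: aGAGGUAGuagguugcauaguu
let-7f-5p: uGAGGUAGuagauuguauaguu
miR-675-5p: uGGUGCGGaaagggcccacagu
miR-675-3p: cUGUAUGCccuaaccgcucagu
The *let-7* genes lie on the minus strand of chromosome 13, let-7a-5p at chr13:48538239-48538260, let-7d-5p at chr13:48536078-48536099 and let-7f-5p at chr13:48537889-48537910. The miR-675 arms lie on the minus strand inside *H19*, at chr7:142577112-142577133 and chr7:142577078-142577099. The row for *Mir675* held 0 counts in every kidney, as did those of *Snrpn* and *Snurf*, imprinted genes that overlap each other near *Ndn*, so none of these 3 is analysed here. The kit named for the libraries does not mark strand, and the counting setting is not given in the sources used here, so reads of antisense transcripts over *H19*, *Igf2*, *Mest* or *Peg3* cannot be told apart from those of the genes.

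The 7 bases CTACCTC, the DNA complement of the *let-7* seed, were searched on the sense strand of the longest GENCODE M21 transcript of each gene, because a match is where *let-7* could pair. They were found in 3 of the 10 genes, *Meg3*, *Plagl1* and *Peg3*, and in 24.3% of the transcripts of 15798 tested genes. The matches are shown with 10 bases on each side, the match in capitals.
Meg3 first site: acatccacacCTACCTCtaggagaggt
Meg3 middle site: actggcaagcCTACCTCacagggttgt
Meg3 last site: gctcaggttcCTACCTCacagggctgt
Plagl1 site: aatcctgttcCTACCTCatatgcccca
Peg3 site: gttctgtcccCTACCTCttagatagtc
The *Meg3* matches lie in exon 5 of 5 of the non-coding transcript, at chr12:109567841-109567847, chr12:109568430-109568436 and chr12:109571629-109571635 on the plus strand of GRCm38. The *Plagl1* match lies in the coding part of exon 6 of 6, at chr10:13128224-13128230 on the plus strand, and the *Peg3* match in the 3′ UTR in exon 9 of 9, at chr7:6706884-6706890 on the minus strand. Long transcripts hold the letters more often. Among tested transcripts within 10% of the same length the share was 66.7% for *Meg3*, 31% for *Plagl1* and 45.3% for *Peg3*. No match was in *H19*, *Dlk1*, *Cdkn1c*, *Mest*, *Grb10*, *Ndn* or *Phlda2*, which says only that these letters are not in the transcripts searched. *Plagl1* encodes a zinc-finger protein that binds the palindrome GGGGCCCC, so that motif was searched in RefSeq promoter windows around start sites, which matched 8 of the 10 genes. It was in 1 of their 12 windows, that of *Peg3* on the minus strand within chr7:6730370-6730669, and in 1.08% of all 32851 windows. *H19* and *Cdkn1c* had no matching window.
Peg3 promoter stretch: gactctgcttgGGGGCCCCtaacactgact

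Library totals lay between 39926235 and 61872736 counts, at which 3 counts correspond to between 0.0485 and 0.0751 CPM, counts scaled to library size, and no 2 kidneys of a group looked like 1 library (chi-square per gene of 31.6 or more). The labels were checked on the altered genes. The row for mouse *Lin28b* held 232, 224 and 71 counts in the *LIN28B* Wt1 kidneys and 0, 18 and 33 in their controls, with the lowest mutant value in replicate 3, although the transgene is human and this row is no direct measure of it. The rows for *Mirlet7a-1*, *Mirlet7d* and *Mirlet7f-1* held 0 counts in all 3 *let-7* KO kidneys, and *Mirlet7d* held 0, 19 and 35 in *let-7* WT. *Mirlet7a-1* held 0, 8 and 0 and *Mirlet7f-1* 0, 0 and 2 in *let-7* WT, so their zeros in the knockout say little. Kidneys also differed in how strongly long transcripts were represented. A long-minus-short score, the median log2 CPM of the 20% longest minus that of the 20% shortest transcripts, was -0.82, -0.78 and -0.31 in the *LIN28B* Wt1 kidneys, replicate 3 standing apart, and -0.29, -0.42 and -0.68 in their controls. It was -0.74, -1.04 and -1.08 in *let-7* KO and -0.65, -0.96 and -0.33 in *let-7* WT. These scores are set beside the results below, since a fit with the score as a covariate changed several of them.

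The 10 genes were chosen with earlier results of these data known, so the counts below only describe them. The study itself reported *H19* as overexpressed in both models at P3. Across the 10 genes, only *H19* in the *LIN28B* Wt1 model had an adjusted p below 0.05 in edgeR's quasi-likelihood test with Benjamini-Hochberg adjustment over all genes. That is 1 of 10, against 1.23% of the 15793 genes tested, and litter as a block left the call in place (adjusted p = 0.0360) while it lowered the count over all genes from 194 to 95. For the *let-7* model this was 0 of 10, against 0.0194% of 15500 genes (edgeR), with 2 of the 10 at an unadjusted p below 0.05 and 2 past the adjusted threshold in DESeq2. At the study's own cutoff, an unadjusted p below 0.01, the *LIN28B* Wt1 model had 4 of 10, all higher (*H19*, *Dlk1*, *Plagl1* and *Cdkn1c*), against 7.33% of all genes, 3.25% higher and 4.08% lower. With litter as a block *Cdkn1c* missed that cutoff (unadjusted value 0.0162 in edgeR), which left 3 of 10. *let-7* KO had 2 of 10, both higher (*H19* and *Cdkn1c*), against 2.73% of all genes, 1.1% higher and 1.63% lower. Every mutant kidney was above every control for 4 of 10 in *LIN28B* Wt1 (*H19*, *Dlk1*, *Plagl1* and *Phlda2*), against 10.3% of all genes, and for 2 of 10 in the knockout (*H19* and *Cdkn1c*), against 7.87%. No member had every mutant below every control in either model, against 13.5% and 8.79% of all genes. The direction was less mixed in the *LIN28B* Wt1 model, where all 10 log2 fold changes were above 0, from 0.22 to 2.06 with a median of 0.63, beside a median of -0.02 over all genes tested. Of these 10 genes, 8 were higher in both litters, and *Mest* was at -0.05 without mutant replicate 3. In *let-7* KO 6 of 10 were above 0, from -0.65 to 1.87 with a median of 0.18, beside a median of -0.02 over all genes, and 4 of 10 were higher in both litters.

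**Figure D1:**
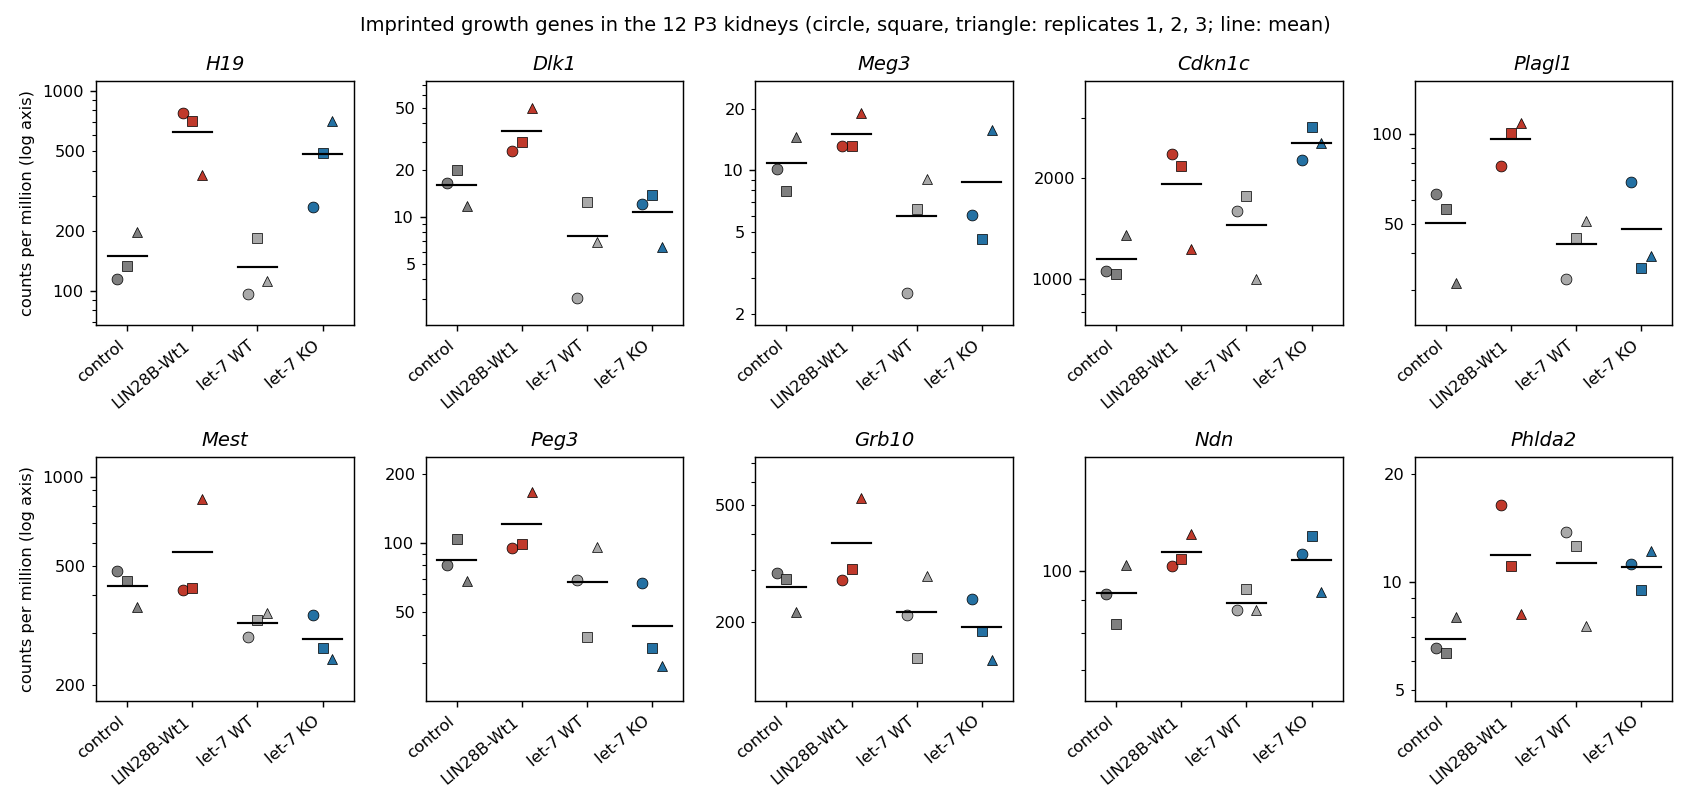
Levels of the 10 imprinted genes in CPM on log axes, 1 panel per gene, for controls, LIN28B Wt1, let-7 WT and let-7 KO kidneys, with circles, squares and triangles for replicates 1, 2 and 3 and a line at the group mean. *H19* is higher in all mutant kidneys of both models than in their controls, while in *Mest*, *Peg3* and *Grb10* the triangle of the LIN28B Wt1 group stands far above its other two points.

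*H19* is a maternally expressed long non-coding RNA (ENSMUSG00000000031.16, chromosome 7, 142575529 to 142578143, minus strand, on GRCm38 as for all genes here) of fetal tissues that restrains growth. Its level was 777, 712 and 378 CPM in the *LIN28B* Wt1 kidneys and 115, 134 and 197 in their controls. *let-7* KO values were 264, 490 and 704 CPM, against 97.0, 184 and 113 in *let-7* WT. In each model every mutant kidney was above every control, and the lowest *LIN28B* Wt1 kidney was the replicate 3 of litter 2. *H19* rose 4.18-fold in *LIN28B* Wt1 (log2 fold change 2.06, 95% confidence interval 1.43 to 2.70, adjusted p = 0.0115 in edgeR). In *let-7* KO the fold was 3.64 (log2 1.87, 95% confidence interval 1.099 to 2.632), adjusted p = 0.239 in edgeR, 0.000265 unadjusted. Within litters, the log2 difference was 2.58 in litter 1 and 0.94 in litter 2 for *LIN28B* Wt1, and the knockout litters gave 1.43 and 2.64. The *LIN28B* Wt1 call held in 3 of 6 fits that each left out 1 kidney and was lost without control replicate 1 (adjusted p = 0.0876 in edgeR), control replicate 2 (0.113) or mutant replicate 2 (0.0501). With the long-minus-short score as a covariate, added after seeing the data, the log2 fold change was 1.70 in *LIN28B* Wt1 (adjusted p = 1.41e-05 in edgeR) and 1.29 in the knockout (adjusted p = 0.502). In whole kidneys a larger share of *H19*-expressing cells and more *H19* RNA per cell cannot be told apart, here and for every gene below.

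Several cell type marker sums moved with the groups. The 8 cap mesenchyme markers, genes of the nephron progenitors such as *Six2* and *Cited1*, summed to between 403 and 451 CPM in *LIN28B* Wt1 and between 127 and 135 in controls, and 5 of the 7 tested rose at an adjusted p below 0.05. In *let-7* KO the sum was between 115 and 152 CPM, against 88.8 to 103 in *let-7* WT, with a median log2 fold change of 0.63. The 6 proximal tubule markers summed to between 944 and 1164 CPM in *LIN28B* Wt1 and 1983 to 2110 in controls, and 1 of them, the phosphate transporter *Slc34a1*, fell. In *let-7* KO that sum was 2190 to 2583 CPM, against 2732 to 3231 in *let-7* WT. The 4 endothelial markers summed to 179 to 213 CPM in *LIN28B* Wt1 and 263 to 311 in controls, and to 229 to 325 in *let-7* KO and 220 to 307 in *let-7* WT. The 6 ureteric bud and collecting duct markers summed to 2437 to 2812 CPM in *let-7* KO and 1197 to 2382 in *let-7* WT, and overlapped in the other model. The 5 liver markers summed to 370, 347 and 172 CPM in *LIN28B* Wt1, against 240 to 305 in controls. In the *let-7* KO kidneys they summed to 145, 360 and 317 CPM, against 98.9 to 164 in *let-7* WT. Of the liver markers, *Alb* was at most 5.82 CPM in any kidney, so these sums rest on the others. The 10 adrenal markers, genes of tissue that can stay attached to a dissected kidney, summed to 7.37 to 9.68 CPM in *LIN28B* Wt1 and 2.34 to 4.59 in controls, with *Cyp11b2* at 0 counts in every kidney. Of the 4 adrenal markers tested in that model 1 rose, *Pnmt*, and *Cyp11a1*, not tested, had 1, 52 and 68 counts in *LIN28B* Wt1 and 0 in all 3 controls. The 7 skeletal muscle markers summed to 12.3 to 21.2 CPM in *LIN28B* Wt1 and 8.26 to 12.02 in controls, with *Myh8* at 0 everywhere. The 5 fat markers summed to 236 to 402 CPM in *LIN28B* Wt1 and 419 to 519 in controls, and to 415 to 631 in *let-7* KO and 253 to 415 in *let-7* WT. In *let-7* KO replicate 1 *Adipoq*, *Ucp1* and *Plin1* held 0 counts, so its sum of 415 CPM came from *Fabp4* and *Lep*. These 3 genes were a small part of the sum in the other kidneys too, so the sums do not follow them. *Adipoq* was 22.4 and 25.6 CPM in control replicates 1 and 2, 2.59 in control replicate 3 and at most 3.48 elsewhere. *Ucp1* and *Plin1* were also highest in those 2 controls, with smaller counts of all 3 genes in control replicate 3, *LIN28B* Wt1 replicates 1 and 3 and *let-7* KO replicate 2. Without those 2 kidneys the *H19* log2 fold change in *LIN28B* Wt1 was 1.66, against a single control kidney (adjusted p = 0.828 in edgeR, 0.00400 unadjusted). The part of any of these cell types in the *H19* difference was not tested.

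*Igf2*, the paternally expressed growth factor that lies next to *H19* and shares its enhancers, gave a yardstick for that domain. It was 326, 320 and 283 CPM in *LIN28B* Wt1 and 104, 103 and 110 in controls. Levels in *let-7* KO were 169, 275 and 334 CPM, against 89.2, 150 and 86.6 in *let-7* WT. The count ratio of *H19* to *Igf2* in a kidney was 2.38, 2.22 and 1.34 in *LIN28B* Wt1 and 1.11, 1.303 and 1.79 in controls. The ratio was therefore higher in both litter 1 mutants than in any control and lower in the litter 2 mutant than in its littermate. On the log2 scale the group means were 0.94 ± 0.46 (SD, n = 3) and 0.46 ± 0.35 (SD, n = 3), a difference of 0.48 (exact permutation test, two-sided, p = 0.2). In *let-7* KO the ratio was 1.56, 1.78 and 2.11, above all 3 *let-7* WT values of 1.09, 1.23 and 1.301. That log2 difference was 0.59 (exact permutation test, two-sided, p = 0.1, the smallest that 3 against 3 allow). The longest transcript of *H19* has 2286 bases and that of *Igf2* 4722. In *LIN28B* Wt1, controls and *let-7* KO the kidney with the highest ratio had the lowest long-minus-short score of its group (-0.82, -0.68 and -1.08). In *let-7* WT the kidney with the highest ratio had the highest score (-0.33). The part of the score in these ratios was not tested.

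*Cdkn1c* encodes p57, an inhibitor of cyclin-dependent kinases that stops cell division, and lies at the other end of the same chromosome 7 cluster (143458339 to 143461050, minus strand). It was 2343, 2161 and 1224 CPM in *LIN28B* Wt1 and 1058, 1036 and 1349 in controls. The knockouts of *let-7* had 2257, 2822 and 2533 CPM, against 1588, 1760 and 998 in *let-7* WT. The *let-7* KO kidneys were all above their controls, whereas in the *LIN28B* Wt1 model the litter 2 mutant was below its littermate control. Its fitted log2 fold change was 0.73 in *LIN28B* Wt1 (95% confidence interval 0.24 to 1.22) and 0.79 in the knockout (0.31 to 1.27), with adjusted p = 0.124 and 0.362 in edgeR (0.00777 and 0.00400 unadjusted). Litter 1 gave a log2 difference of 1.104 and litter 2 one of -0.139 in *LIN28B* Wt1, and both knockout litters were higher, by 0.59 and 1.34. Without mutant replicate 3 the *LIN28B* Wt1 log2 fold change was 0.97 and passed the test (adjusted p = 0.00244 in edgeR), and DESeq2 on all kidneys called it in both models (adjusted p = 0.0114 and 0.0188). With 1 kidney left out, an unadjusted p below 0.01 (edgeR) held in 2 of 6 fits in *LIN28B* Wt1 and 5 of 6 in the knockout. With the long-minus-short score as a covariate the log2 fold change was smaller, 0.43 in *LIN28B* Wt1 (adjusted p = 0.0215 in edgeR) and 0.48 in the knockout (0.558).

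*Phlda2*, a small pleckstrin-homology protein that limits placental growth, is a close neighbour of *Cdkn1c* (chromosome 7, 143501545 to 143503150, minus strand). It was 16.4, 11.1 and 8.12 CPM in *LIN28B* Wt1 and 6.53, 6.33 and 7.96 in controls. The *let-7* KO kidneys had 11.3, 9.53 and 12.2 CPM and the *let-7* WT kidneys 13.8, 12.6 and 7.54. The *LIN28B* Wt1 kidneys were all above their controls, by little in litter 2, and the *let-7* groups overlapped. On the log2 scale the fold change was 0.77 in *LIN28B* Wt1 (95% confidence interval 0.04 to 1.504, adjusted p = 0.248 in edgeR) and -0.06 in the knockout (-0.83 to 0.71, adjusted p = 0.968).

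*Grb10* (chromosome 11, 11930508 to 12038683, minus strand), an adaptor that dampens insulin and IGF receptor signalling, was 278, 304 and 529 CPM in *LIN28B* Wt1 and 294, 279 and 215 in controls. *let-7* KO values were 240, 185 and 148 CPM, against 210, 150 and 287 in *let-7* WT. Only the litter 2 kidney of the *LIN28B* Wt1 group was well above its controls. The log2 fold change was 0.50 in *LIN28B* Wt1 (95% confidence interval -0.05 to 1.05, adjusted p = 0.323 in edgeR), of which the litters gave 0.02 and 1.296, and 0.14 without mutant replicate 3. Its *let-7* KO counterpart was -0.19 (95% confidence interval -0.76 to 0.39), and 0.32 with the long-minus-short score as a covariate.

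*Dlk1* and *Meg3* are partners of an imprinted domain on chromosome 12. *Dlk1* (109452823 to 109463336, plus strand) encodes a membrane-bound ligand-like protein of immature cells. It was 26.5, 30.2 and 49.4 CPM in *LIN28B* Wt1 and 16.5, 20.03 and 11.8 in controls, so all mutant kidneys were above all controls. Levels in *let-7* KO were 12.02, 13.9 and 6.41 CPM and in *let-7* WT 3.03, 12.6 and 6.94, and those groups overlapped. Its fitted log2 fold change was 1.14 in *LIN28B* Wt1 (95% confidence interval 0.48 to 1.80), with adjusted p = 0.0907 in edgeR (0.00338 unadjusted). It was 0.64 in litter 1 and 2.06 in litter 2. DESeq2 (adjusted p = 0.00469) and the fit with the long-minus-short score (log2 fold change 1.39, adjusted p = 0.00767 in edgeR) called it. The knockout value was 0.51 (95% confidence interval -0.65 to 1.66, adjusted p = 0.767 in edgeR).

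*Meg3* (109541001 to 109571726, plus strand), a maternally expressed long non-coding RNA with tumour-suppressing properties, has 3 *let-7* seed matches, shown above. It was 13.1, 13.1 and 18.95 CPM in *LIN28B* Wt1 and 10.2, 7.96 and 14.6 in controls. The knockouts of *let-7* had 6.07, 4.61 and 15.7 CPM, against 2.52, 6.45 and 9.05 in *let-7* WT. Within each of the 4 groups the litter 2 kidney was the highest, and mutant and control values overlapped in both models. On the log2 scale the fold change was 0.47 in *LIN28B* Wt1 (95% confidence interval -0.21 to 1.14, adjusted p = 0.464 in edgeR) and 0.53 in the knockout (-0.78 to 1.84, adjusted p = 0.789). The latter was -0.17 without mutant replicate 3. The count ratio of *Meg3* to *Dlk1* was 0.496, 0.432 and 0.384 in *LIN28B* Wt1 and 0.617, 0.398 and 1.23 in controls, a log2 difference of -0.63 (exact permutation test, two-sided, p = 0.3). For the *let-7* model this was 0.505, 0.331 and 2.45, against 0.832, 0.514 and 1.303 in *let-7* WT (log2 difference -0.15, exact permutation test, p = 0.9). Neither ratio differed beyond the spread between kidneys.

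**Figure D2:**
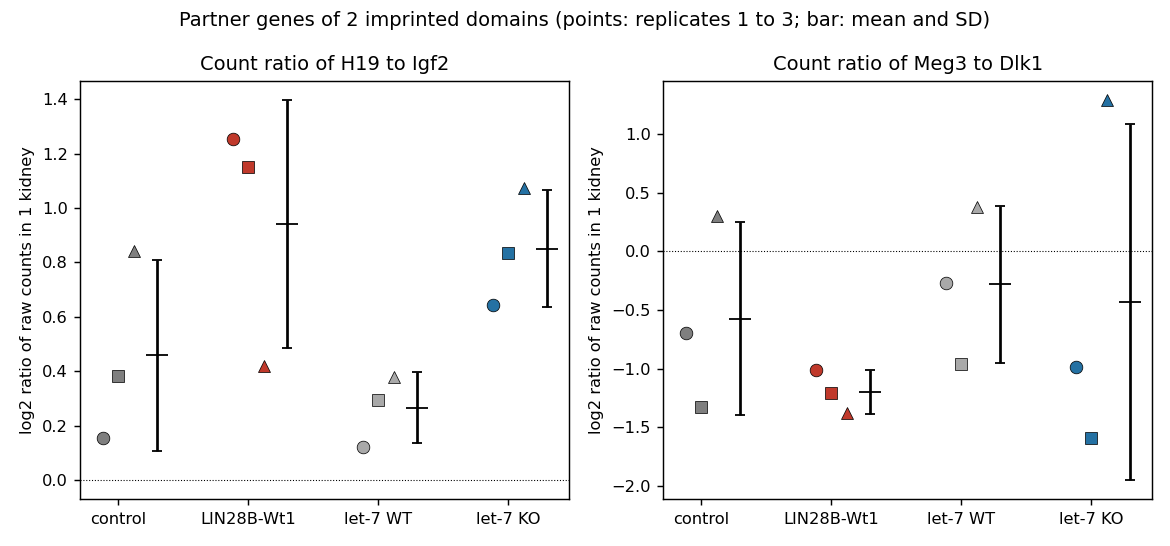
Log2 ratio of raw counts of *H19* to *Igf2* (left) and of *Meg3* to *Dlk1* (right) in each kidney, with replicates 1 to 3 as circle, square and triangle and the group mean with its SD beside them. The *H19* to *Igf2* ratio is above every let-7 WT value in all 3 let-7 KO kidneys, whereas the LIN28B Wt1 triangle of litter 2 lies among the controls.

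*Plagl1* encodes the zinc-finger protein that is thought to coordinate several genes of this set (chromosome 10, 13060504 to 13131694, plus strand). It was 78.2, 101 and 109 CPM in *LIN28B* Wt1 and 63.3, 56.1 and 31.6 in controls, again without overlap. The *let-7* KO kidneys had 69.3, 35.6 and 39.0 CPM and the *let-7* WT kidneys 32.7, 45.1 and 51.2, with overlap. The log2 fold change was 0.94 in *LIN28B* Wt1 (95% confidence interval 0.36 to 1.51), with adjusted p = 0.103 in edgeR (0.00475 unadjusted), and was 0.58 in litter 1 and 1.79 in litter 2. It passed with sex, scored from Y-linked genes, as a covariate (adjusted p = 0.0306 in edgeR) and in DESeq2 (adjusted p = 0.00458). Its *let-7* KO counterpart was 0.15 (95% confidence interval -0.51 to 0.81, adjusted p = 0.896 in edgeR).

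*Mest*, a paternally expressed enzyme-like protein of fetal mesenchyme on chromosome 6 (30723547 to 30748465, plus strand), was 416, 422 and 844 CPM in *LIN28B* Wt1 and 481, 445 and 366 in controls. *let-7* KO values were 343, 266 and 244 CPM, against 290, 330 and 348 in *let-7* WT. Both litter 1 mutants lay below both litter 1 controls of the *LIN28B* Wt1 model, and the litter 2 mutant lay far above all. The log2 fold change of 0.39 in *LIN28B* Wt1 (95% confidence interval -0.21 to 0.98, adjusted p = 0.497 in edgeR) was -0.05 without that kidney. The knockout value was -0.20 (95% confidence interval -0.61 to 0.21, adjusted p = 0.743).

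*Peg3*, a large paternally expressed zinc-finger protein (chromosome 7, 6703892 to 6730431, minus strand), was 95.3, 99.4 and 167 CPM in *LIN28B* Wt1 and 80.4, 104 and 68.3 in controls. Levels in *let-7* KO were 67.0, 34.9 and 29.2 CPM, against 69.2, 39.1 and 95.8 in *let-7* WT. Its lowest and highest levels over all 12 kidneys were thus in *let-7* KO replicate 3 and *LIN28B* Wt1 replicate 3, which also had the lowest and nearly the highest long-minus-short scores. Its fitted log2 fold change was 0.52 in *LIN28B* Wt1 (95% confidence interval -0.03 to 1.08, adjusted p = 0.309 in edgeR) and 0.20 without mutant replicate 3. For the *let-7* model this was -0.65 (95% confidence interval -1.48 to 0.19, adjusted p = 0.564 in edgeR) and 0.10 with the score as a covariate. *Peg3* has the longest transcript of the protein-coding members, at 8694 bases.

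*Ndn* (chromosome 7, 62346569 to 62350262, plus strand, a single exon), which encodes necdin, a protein of cells that have left the cell cycle, had the narrowest range of the 10 genes. It was 102, 104 and 114 CPM in *LIN28B* Wt1 and 91.9, 82.6 and 102 in controls. The knockouts of *let-7* had 106, 114 and 92.6 CPM and the *let-7* WT kidneys 86.9, 93.6 and 86.9. The highest kidney was only 1.38 times the lowest of all 12. The log2 fold changes were 0.22 (95% confidence interval -0.10 to 0.54, adjusted p = 0.479 in edgeR) and 0.21 (-0.17 to 0.58, adjusted p = 0.690), and neither interval reaches 1, a doubling.

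**Figure D3:**
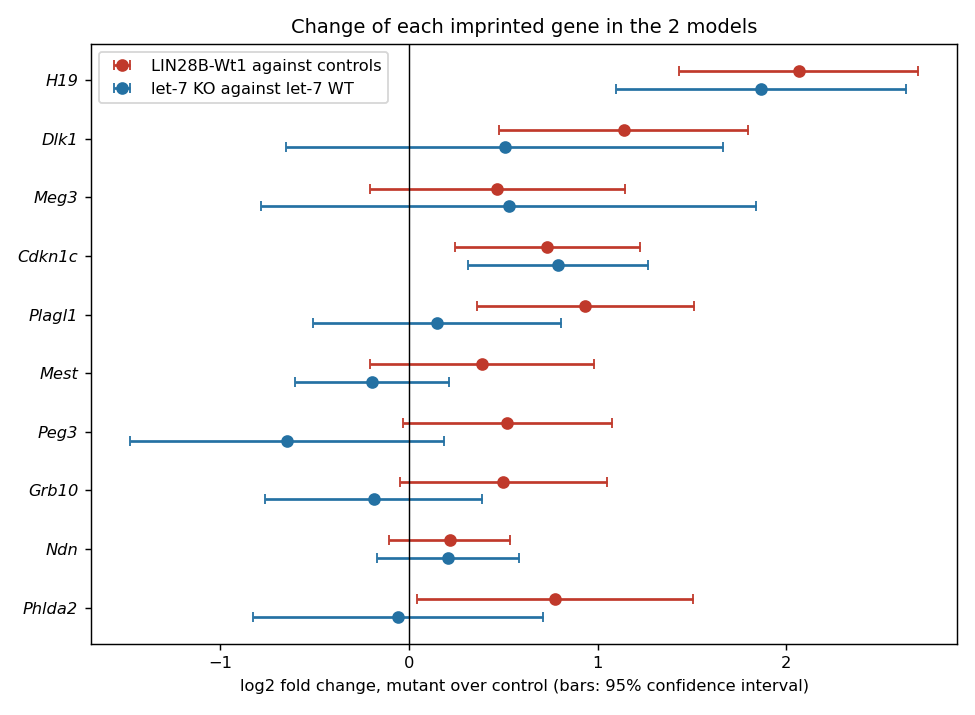
Log2 fold change of each gene, mutant over littermate control, with 95% confidence intervals from edgeR, for LIN28B Wt1 (red) and let-7 KO (blue), 3 kidneys against 3. *H19* lies at 2.06 and 1.87 with both intervals above 0, and *Cdkn1c* at 0.73 and 0.79.

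Kidneys of 1 group differed in which of the 10 genes were high. Against the mean of their own controls, *LIN28B* Wt1 replicates 1 and 2 were high in *H19* (2.42 and 2.30 on the log2 scale) and *Cdkn1c* (1.04 and 0.92) and near 0 in *Mest*. Replicate 3 was lower in *H19* (1.39), near 0 in *Cdkn1c* (0.10) and higher in *Mest* (0.98), *Peg3* (1.01) and *Grb10* (1.02). In *let-7* KO, replicate 3 was highest in *H19* (2.48) and lowest in *Peg3* (-1.13) and *Grb10* (-0.49). After the group means were subtracted, the Pearson correlation with *H19* over the 12 kidneys was 0.67 for *Cdkn1c* and 0.86 for *Igf2*, and -0.89 for *Grb10*, -0.88 for *Peg3* and -0.75 for *Mest*. These are descriptions over 12 libraries that share litters and differ in the long-minus-short score, and no test was made of them. With that score as a covariate, 7 of 10 genes passed an adjusted p of 0.05 in the *LIN28B* Wt1 model, *H19*, *Dlk1*, *Plagl1*, *Cdkn1c*, *Mest* (log2 fold change 0.61), *Peg3* (0.72) and *Grb10* (0.73), among 989 genes in all. In *let-7* KO none passed with it (edgeR), while 1 gene in all did and 1 of the 10 had an unadjusted p below 0.01. The covariate was chosen after seeing the data, and its part in the differences between genotypes was not tested beyond this fit.

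**Figure D4:**
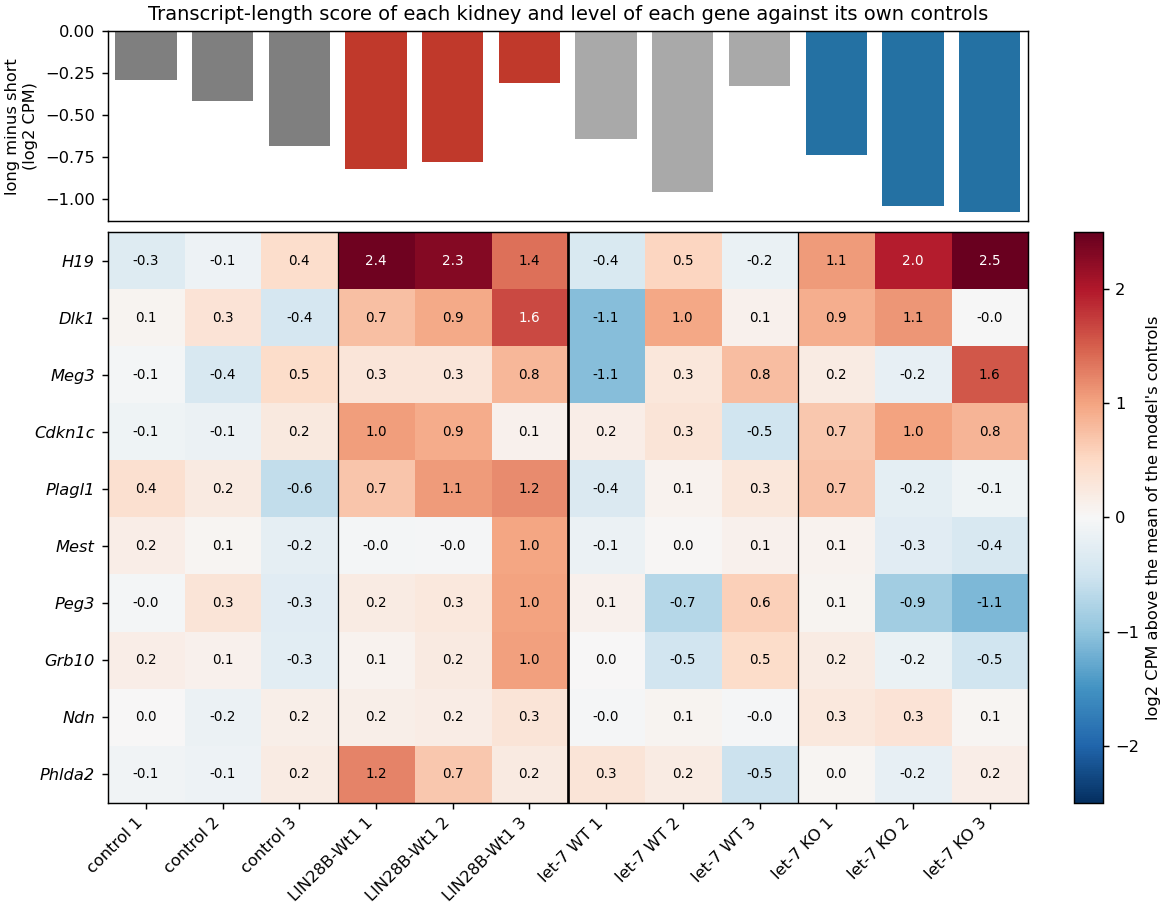
Top, the long-minus-short transcript score of each kidney (difference of median log2 CPM). Bottom, log2 CPM of each gene in each kidney above the mean of that model's controls, red for higher and blue for lower. LIN28B Wt1 replicate 3 differs from its group mates in both, with *Mest*, *Peg3* and *Grb10* at 0.98, 1.01 and 1.02 above the controls and *Cdkn1c* at 0.10.

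**Figure D5:**
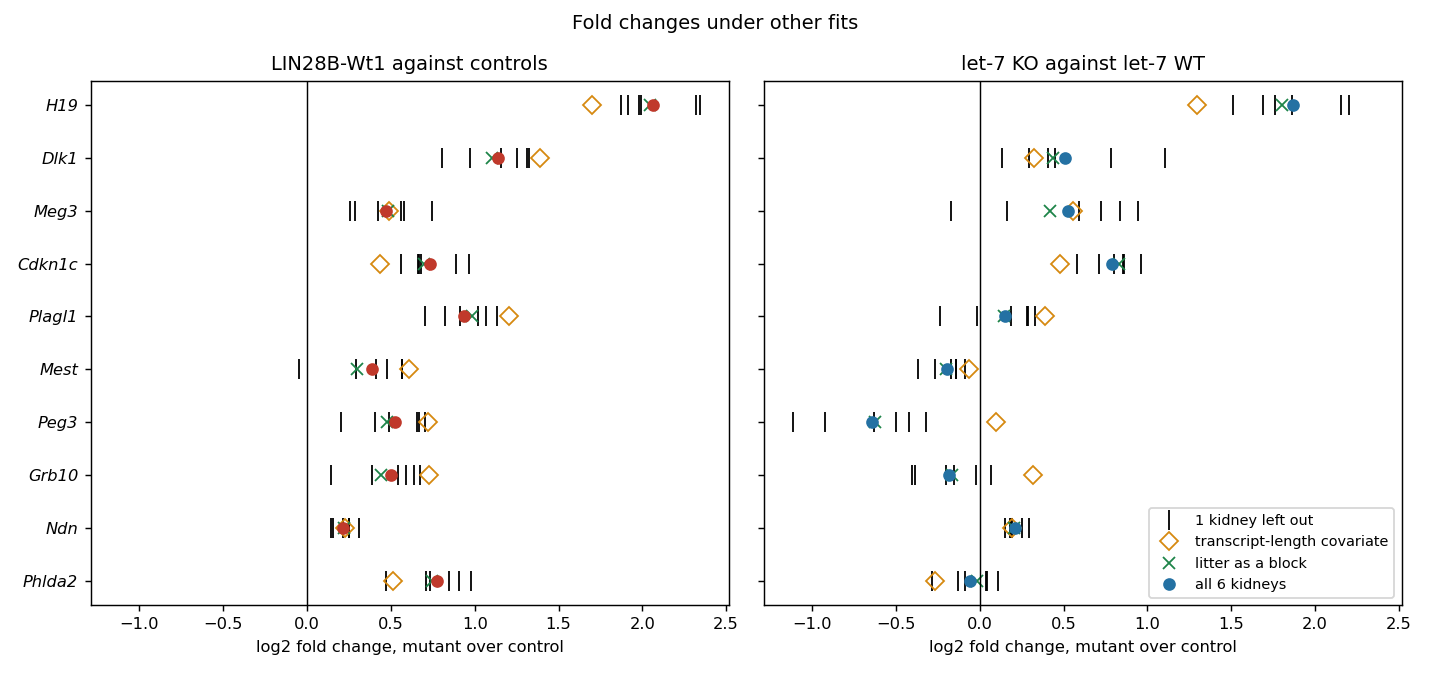
Log2 fold change of each gene in each model with all 6 kidneys (filled circle), with each kidney left out in turn (black ticks), with the litter as a block (green cross) and with the long-minus-short score as a covariate (orange diamond). *H19* stays above 1 in every fit of both models, while the let-7 KO values of *Peg3* and *Grb10* cross 0 with the covariate.

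The models were compared in a fit of all 12 kidneys. None of the 10 genes had a different effect in *LIN28B* Wt1 and *let-7* KO at an adjusted p below 0.05 in edgeR (0.00602% of 16598 genes), and 1 of them had an unadjusted p below 0.05. DESeq2 called 0 of 10 as well, and at an unadjusted p below 0.01 edgeR had 0 of 10, against 1.55% of all genes. For *H19* the *LIN28B* Wt1 effect minus the *let-7* KO effect was 0.18 on the log2 scale, with a 95% confidence interval of -0.88 to 1.24, and for *Cdkn1c* it was -0.07 (-0.79 to 0.64). Neither interval shows that the models acted alike. The largest difference was that of *Peg3*, 1.15 (95% confidence interval 0.10 to 2.21), with adjusted p = 0.757 in edgeR (0.0341 unadjusted), and 0.84 with the long-minus-short score as a covariate.

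The control groups differed in strain, breeding and litters, which cannot be told apart. In C57BL/6 controls against mixed-strain *let-7* WT kidneys, none of the 10 genes had an adjusted p below 0.05 in edgeR, against 0.627% of 16598 genes, and 1 had an unadjusted p below 0.05 while DESeq2 called 0. At an unadjusted p below 0.01 it was 0 of 10, against 3.32% of all genes, 1.37% higher in C57BL/6 and 1.95% lower. *Dlk1* was the farthest apart, at 11.8 to 20.03 CPM in C57BL/6 and 3.03 to 12.6 in mixed-strain kidneys (log2 difference 1.102, 95% confidence interval 0.15 to 2.05, adjusted p = 0.424 in edgeR). *H19* did not separate them, with a difference of 0.18 (-0.57 to 0.93). Over the 4 groups *H19* averaged 622 ± 214 CPM (SD, n = 3) among *LIN28B* Wt1 kidneys, 486 ± 220 in *let-7* KO, 149 ± 43.1 in C57BL/6 controls and 131 ± 46.4 in *let-7* WT. Both mutant groups overlapped, as did both control groups, and *let-7* KO lay apart from the C57BL/6 controls. *Cdkn1c* had another order, 2537 ± 283 CPM in *let-7* KO, 1909 ± 600 in *LIN28B* Wt1, 1449 ± 400 in *let-7* WT and 1148 ± 174 in C57BL/6 controls, and each neighbouring pair overlapped. *Dlk1* and *Plagl1* were highest in *LIN28B* Wt1, apart from the C57BL/6 controls, and then ran through *let-7* KO to *let-7* WT with overlap. *Mest*, *Peg3* and *Grb10* ran from *LIN28B* Wt1 through C57BL/6 controls and *let-7* WT to *let-7* KO, and of these neighbours only the C57BL/6 and *let-7* WT values of *Mest* lay apart. *Phlda2* was lowest in the C57BL/6 controls, apart from *let-7* KO above them. *Meg3* and *Ndn* groups overlapped with each neighbour in their order.

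Levels between genes were compared per length, as CPM divided by the kilobases of the longest transcript, averaged over the 12 kidneys. *Cdkn1c* was the most abundant at 926 CPM per kb, followed by *H19* at 152 and *Mest* at 150. *Grb10* followed at 51.4, *Ndn* at 26.6, *Phlda2* at 13.6, *Plagl1* at 11.3 and *Peg3* at 9.11. *Dlk1* at 3.75 and *Meg3* at 0.7003 were the lowest, and the *Meg3* value rests on a transcript of 14548 bases that may not be the one used in kidney. On the same scale *H19* stood at 65.1 in C57BL/6 controls and 272 in *LIN28B* Wt1, and at 57.4 in *let-7* WT and 213 in *let-7* KO. By group means it thus ranked below *Mest* in both control groups, at 162 and 121 CPM per kb, and above it in both mutant groups, at 210 and 107. The order did not hold in every mutant kidney. Per kb, *H19* stayed below *Mest* in *LIN28B* Wt1 replicate 3 (378 against 844 CPM before division by length) and in *let-7* KO replicate 1 (264 against 343).

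Genes of the same imprinted domains were read from lists that, like the 10 genes, were chosen with earlier results of these data known. Of 13 tested neighbours in the *H19*-*Igf2* and *Kcnq1ot1* domains, only *Igf2* passed an adjusted p of 0.05 in *LIN28B* Wt1 in edgeR, and it rose, while DESeq2 called 3, *Igf2* and the lower *Slc22a18* and *Cd81*. The median log2 fold change was 0.27, from -1.24 to 1.56. Of 14 tested in *let-7* KO none passed in edgeR, 4 had an unadjusted p below 0.05 and 2 passed in DESeq2, *Igf2* and *Lsp1*. Neighbours at an unadjusted p below 0.01 (edgeR) were 4 of 13 in *LIN28B* Wt1 and 2 of 14 in *let-7* KO, against 7.33% and 2.73% of all genes. Among these, picked after their values were seen, *Slc22a18*, a membrane transporter near *Cdkn1c*, was 31.2, 28.9 and 13.9 CPM in *LIN28B* Wt1 and 62.5, 54.5 and 58.2 in controls (log2 fold change -1.24, adjusted p = 0.0630 in edgeR). *Lsp1*, also picked afterwards, was 171, 219 and 211 CPM in *let-7* KO and 113, 94.3 and 110 in *let-7* WT (log2 fold change 0.90, adjusted p = 0.239 in edgeR). *Kcnq1ot1*, the non-coding RNA that silences *Cdkn1c* on the paternal allele, again picked afterwards, was 22.5, 23.2 and 73.7 CPM in *let-7* KO and 15.9, 22.9 and 60.8 in *let-7* WT. The litter 2 kidney was far the highest in both of those groups. It was 77.8, 80.4 and 60.7 CPM in *LIN28B* Wt1 against 55.7, 50.2 and 55.6 in controls.

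No neighbour in the *Dlk1*-*Meg3*, *Peg3*, *Ndn*, *Mest*, *Grb10* or *Plagl1* domains passed an adjusted p of 0.05 in either model (edgeR), among 23 tested in *LIN28B* Wt1 and 21 in the knockout. At an unadjusted p below 0.05 there were 4 and 0, and DESeq2 called 1, *Ltv1*, and 0. The neighbour with the smallest p in each domain is given next. *Yy1*, a transcription factor near *Dlk1*, had a log2 fold change of 0.52 in *LIN28B* Wt1 (adjusted p = 0.311 in edgeR), and *Usp29*, a deubiquitinase transcribed divergently from *Peg3*, had 1.12 (0.588) on 14 to 69 counts a kidney. For *Peg12* near *Ndn* the value was 0.82 (adjusted p = 0.210), for *Klf14* near *Mest* 1.45 (0.654, on 1 to 385 counts a kidney), for *Ddc* near *Grb10* -0.42 (0.444) and for *Ltv1* near *Plagl1* 0.55 (0.130), all in *LIN28B* Wt1 and by edgeR. At the unadjusted cutoff of 0.01 *Ltv1* alone had a p below it in *LIN28B* Wt1, and none did in *let-7* KO, against 7.33% and 2.73% of all genes. *Ltv1* was 71.0, 88.5 and 61.9 CPM in *LIN28B* Wt1 and 49.9, 48.4 and 52.8 in controls.

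Imprinted genes of other domains gave 1 gene that rose and 1 that fell among 29 tested in *LIN28B* Wt1 in edgeR and 5 calls in DESeq2, with a median log2 fold change of 0.08, and 0 of 28 in *let-7* KO (edgeR, with 1 at an unadjusted p below 0.05 and 1, *Gatm*, called by DESeq2). Those at an unadjusted p below 0.01 (edgeR) were 6 of 29 and 1 of 28, against 7.33% and 2.73% of all genes. *Asb4*, a subunit of a ubiquitin ligase, was 22.4, 30.5 and 31.7 CPM in *LIN28B* Wt1 and 9.20, 9.32 and 12.1 in controls and rose (log2 fold change 1.47, adjusted p = 0.0212 in edgeR). That call was lost in the fit of all 12 kidneys (adjusted p = 0.0698 in edgeR) and without control replicate 1 (0.164), 2 (0.174) or 3 (0.0600) or mutant replicate 2 (0.0766). The *let-7* KO kidneys had 3.95, 2.498 and 3.09 CPM, against 0.971, 0.606 and 1.85 (log2 fold change 1.46, adjusted p = 0.541). It also differed between the control groups, at 3.15 higher on the log2 scale in C57BL/6 controls (adjusted p = 0.00185 in edgeR). *Gatm*, a mitochondrial enzyme of creatine synthesis in the proximal tubule, was 299, 324 and 311 CPM in *LIN28B* Wt1 and 895, 981 and 804 in controls and fell (log2 fold change -1.52, adjusted p = 0.000938). *let-7* KO values were 598, 680 and 632 CPM, against 1270, 1169 and 1268 (log2 fold change -0.97, adjusted p = 0.129), and the edgeR fit of all 12 kidneys called it (log2 fold change -0.96, adjusted p = 0.00546). Proximal tubule markers were lower in the same kidneys, as given above, and their part was not tested.

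Of 12 tested partners in the network of imprinted genes that fall together after birth, *Igf2* and *Asb4* rose, *Gatm* fell, and the median log2 fold change was 0.52 in *LIN28B* Wt1. DESeq2 called 6 of the 12 there, and 3 genes of the RNA-binding protein list, where edgeR called 2. The gene called by DESeq2 only was *Lin28b*, the mouse row of the gene altered in this model. In *let-7* KO 0 of 12 passed (edgeR, with 2 at an unadjusted p below 0.05 and 2, *Igf2* and *Gatm*, called by DESeq2), and the median was 0.15. Partners at an unadjusted p below 0.01 (edgeR) were 6 of 12 in *LIN28B* Wt1 and 2 of 12 in *let-7* KO, against 7.33% and 2.73% of all genes. All of these partners were already counted above, with the *H19*-*Igf2* neighbours or the imprinted genes of other domains. The counts of these lists are therefore not separate from each other. Factors that keep or read imprints gave no call among 18 tested in either model (edgeR), with 6 and 0 at an unadjusted p below 0.05 and 3 and 0 called by DESeq2. Such factors at an unadjusted p below 0.01 (edgeR) were 3 and 0, against 7.33% and 2.73% of all genes. The smallest p was that of *Trim28*, a co-repressor that protects imprints, at 331, 340 and 265 CPM in *LIN28B* Wt1 against 204, 199 and 228 in controls (log2 fold change 0.57, adjusted p = 0.0762 in edgeR). Of 6 tested RNA-binding proteins of *H19* and *Igf2* transcripts, *Igf2bp1* and *Igf2bp2* rose in *LIN28B* Wt1. *Igf2bp1* was 85.7, 82.0 and 88.8 CPM against 20.99, 21.7 and 26.4 (log2 fold change 1.90, adjusted p = 0.000977), and *Igf2bp2* was 154, 115 and 230 against 59.3, 58.1 and 54.2 (1.54, adjusted p = 0.0185). The *Igf2bp2* call was lost without control replicate 1 (adjusted p = 0.123 in edgeR), 2 (0.145) or 3 (0.0836) or mutant replicate 1 (0.0601). In *let-7* KO the log2 fold changes were 0.38 and 0.33, with adjusted p = 0.803 and 0.647 in edgeR.

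The genes whose levels ran closest to *H19* over the 12 kidneys were *Snrpd1*, *Eef1g*, *Alyref*, *Ppp4c* and *Denr*, with Pearson correlations from 0.98 to 0.99 among 16597 genes. *Igf2* followed the same pattern at 0.97, and of the other 9 members *Cdkn1c* came closest at 0.76 and *Peg3* was farthest at -0.17. After group means were subtracted, the closest genes included *Snrpb*, *Ppdpf*, *Mdk* and *Ngfrap1*, from 0.97 to 0.99. These points share libraries and litters, and no p is given. The longest transcripts of *Snrpd1*, *Eef1g*, *Snrpb*, *Ppdpf* and *Mdk*, at 858, 1864, 1711, 1160 and 1054 bases, fell in the shortest 20%, which ends at 1965 bases, while that of *H19* has 2286 bases.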

How the data were processed

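RNA sequencing was read in 12 P3 kidneys, 3 per group. The authors trimmed reads with cutadapt, aligned them to mm10 with TopHat2 (version 2.0.9) and Bowtie2, and counted them per gene symbol with HTSeq. The deposited values are raw counts for each kidney, with library totals from 39926235 to 61872736. Groups, replicates and litters came from the labels.

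Each model was tested alone, 3 kidneys against 3, with edgeR 4.0.16 in R 4.3.3: filterByExpr (minimum count 10, minimum total 15), TMM factors, the quasi-likelihood test and Benjamini-Hochberg adjustment over all genes tested. A fit of all 12 kidneys gave the difference between models and between controls. Levels are TMM-scaled CPM over all 12 kidneys. Ratios were tested by exact permutation (scipy 1.17.1, Python 3.11.15). The study's cutoff, an unadjusted p below 0.01, was reported beside an adjusted p below 0.05. Alternatives were DESeq2 1.42.0, other scaling factors, no filter, litter as a block, a sex covariate, other thresholds and leaving out each kidney. A transcript-length covariate and the removal of both controls with fat markers were added after seeing the data.

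Replicate numbers mark litters by the labels. Deviations from group means correlated at -0.039 on average within litters and 0.048 between litters in the *LIN28B* Wt1 model, and at -0.001 and 0.002 in *let-7* KO.

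On counts simulated for each comparison, the test recovered 96.4% of genes changed by 2 on the log2 scale and 45.5% of those changed by 1 in the *LIN28B* Wt1 design (15793 genes), and 91.2% and 33.0% in the *let-7* design (15500 genes). The simulation drew each gene and kidney independently, without litter or transcript-length structure, and changed only genes above a minimum level. Its recovery is therefore no measure of power under such structure.

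The 10 genes and all gene lists were chosen with earlier results of these data known. Outside the 10 genes, the text names *Igf2*, in each list the genes with an adjusted p below 0.05 in either model (at most the 4 of largest change) or else the one with the smallest p, and the 5 genes most correlated with *H19* by each measure, of which 1 is not reported here. *Slc22a18*, *Lsp1*, *Kcnq1ot1*, *Cd81*, *Lin28b* and the marker genes are named outside this rule, after their values were seen. Transcript lengths and positions came from GENCODE M21 (22750 of 24062 symbols matched) and miRNA and promoter sequences from RefSeq on GRCm38.p6.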

Additional observations from a re-analysis of the deposited data

How the results depend on the processing

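*H19* was above its controls in both models under every alternative. Of the 10 genes, 1 passed an adjusted p of 0.05 in *LIN28B* Wt1, against 4 with DESeq2, 2 with sex as a covariate, 2 at an adjusted p below 0.1, 7 with the transcript-length covariate, 0 without both controls with fat markers, and 0 to 2 with 1 kidney left out. At an unadjusted p below 0.01 the 4 became 7 with the length covariate and 2 to 3 with 1 kidney left out. In *let-7* KO the 0 at the adjusted threshold became 2 with DESeq2, and the 2 at the unadjusted one became 1 with the length covariate and 1 to 3 with 1 kidney left out. Between models the 0 at the unadjusted threshold became 1 with the length covariate and 0 to 2 with 1 kidney left out, and between controls 0 to 1. The causes of these shifts were not tested. Over all genes the 194 calls in *LIN28B* Wt1 were 1246 with DESeq2, 989 with the length covariate, 95 with litter as a block, 2 without both controls with fat markers, 2074 without mutant replicate 3, and 21 to 71 without any other kidney. The 3 in *let-7* KO were 203 with DESeq2, 5 in 1 fit of all 12 kidneys, 1 with the length covariate and 0 with the litter block, and at the unadjusted cutoff 423 became 844, 687 and 268 in the first 3 of these. With 1 kidney left out, that count ran from 162 (without mutant replicate 2) to 1296 (without mutant replicate 1), and the 1158 of *LIN28B* Wt1 from 515 (without control replicate 2) to 2509 (without mutant replicate 3), while the adjusted count ran from 0 to 5 in *let-7* KO, 1 to 6 between models and 31 to 137 between controls. Between models 1 call became 101 with DESeq2, 5 with the length covariate, 3 with no filter or with sex, and 0 with the litter block, and between controls 104 became 397 with DESeq2, 256 with the length covariate and 12 without both controls with fat markers. The litter block changed no adjusted call among the 10 genes and put *Cdkn1c* above the unadjusted cutoff of 0.01 in *LIN28B* Wt1, leaving 3. Without both controls with fat markers *Igf2*, *Gatm*, *Asb4*, *Igf2bp1* and *Igf2bp2* also lost their calls there (adjusted p from 0.259 to 0.9998 in edgeR).

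Signs turned for these log2 values. With the length covariate they were 0.10 for *Peg3*, 0.32 for *Grb10* and 0.37 for *Ltv1* in *let-7* KO, 0.025 for *Cdkn1c* between models, and -0.015 for *Plagl1* and 0.18 for *Igf2* between controls. Without both controls with fat markers they were -0.22 for *H19* between models, and -0.44 for *Plagl1* and 0.027 for *Igf2* between controls. With the litter block they were 0.12 for the *Meg3* to *Dlk1* ratio and 0.017 for *Ltv1* in *let-7* KO, and 0.046 for *Meg3* between models. With sex they were -0.015 for *Plagl1* and 0.10 for *Igf2* between controls and 0.00 for *Ltv1* in *let-7* KO. With library totals they were 0.003 for *Meg3* and 0.025 for *Ndn* between models and 0.036 for *Igf2* between controls. DESeq2 gave 0.026 for *Ltv1* in *let-7* KO and 0.003 for *Ndn* between models, upper-quartile factors gave 0.035 and 1 fit of all kidneys 0.013 for *Ltv1*.

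With 1 kidney left out, values of both signs occurred as follows. In *let-7* KO they ran from -0.17 to 0.94 for *Meg3*, -0.24 to 0.33 for *Plagl1*, -0.40 to 0.069 for *Grb10*, -0.28 to 0.11 for *Phlda2*, -0.12 to 0.50 for *Ddc*, -0.31 to 0.75 for *Igf2bp1*, -0.21 to 0.18 for *Ltv1* and -1.01 to 0.43 for the *Meg3* to *Dlk1* ratio. In *LIN28B* Wt1 they ran from -0.046 to 0.57 for *Mest*. Between models they ran from -0.15 to 0.55 for *H19*, -0.25 to 0.16 for *Cdkn1c*, -0.50 to 0.65 for *Meg3*, -0.084 to 0.068 for *Ndn* and -0.005 to 0.53 for *Igf2*. Between controls they ran from -0.077 to 0.50 for *H19*, -0.03 to 0.12 for *Ndn* and -0.18 to 0.26 for *Igf2*. Over all alternatives, 147 member counts and ratios kept their value within the limits set, 21 moved and 4 turned sign. Among single-gene values and counts over all genes, 1044 kept their direction and side of the threshold or their size, 18 calls were lost, 22 were gained, 61 counts over all genes moved by over 1.5 times and 58 values turned sign.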
